A study of Cricetulus griseus with 3 samples.

Results

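The genes of apoptosis and autophagy described here were measured at 79 of the 17664 spots of a mouse cDNA array and carried 45 of the 8146 single gene names tested. A spot was a member when its only gene name opened with Bcl2, Bnip, Casp and a digit, Birc, Pdcd, Atg and a digit, Gabarap, Map1lc3, Becn or Ulk, or was Mcl1, Fadd, Api5 or Sqstm1, with Bnip3 left out. Bax, Bak1, Bid, Bad, Bcl2l1 and Becn1 were not analysed here. RNA of S-1 cells, a Chinese hamster ovary (CHO) line that stably overexpresses the γ-secretase subunits Pen2, Aph1a, presenilin 1 and nicastrin, was set on 3 arrays against RNA of the untransfected parental CHO line. The S-1 cells received 0.05% DMSO for 24 h, and the parental cells received 10 µM of the γ-secretase inhibitor DAPT in 0.05% DMSO for 24 h. Each array paired 1 S-1 culture with 1 DAPT-treated CHO culture of the same independent experiment (n = 3 arrays throughout).

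S-1 is a single derived line, kept under G418, puromycin, zeocin, hygromycin and blasticidin, and is marked by the study as overexpressing App as well. The transgenes, the selection drugs, the line and the inhibitor all separate S-1 cells from DAPT-treated CHO cells at once and cannot be told apart. A log2 ratio above 0 means more RNA in S-1 cells, and below 0 more RNA in DAPT-treated CHO cells, and such ratios do not separate fewer expressing cells from less RNA per cell. They carry no level either, so the identity of CHO cells could not be checked against defining markers, and of 8 blood and immune markers only Cd4 had a value (−0.09 ± 0.05, SD, n = 3, adjusted p = 0.178, limma). The labels were checked on the transfected genes. Psenen, the gene of Pen2, was at 2.84, 3.11 and 3.33 on arrays 1, 2 and 3, Aph1a at 1.85, 2.17 and 2.04 and Ncstn at 0.33, 0.15 and 0.64, all above 0.

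Apoptosis through mitochondria is set by the BCL2 family, in which survival proteins hold back the members that open the outer mitochondrial membrane. Released cytochrome c then activates initiator caspases, which cut and activate executioner caspases, while inhibitor of apoptosis proteins oppose these proteases. In autophagy the ULK kinase complex starts a double membrane, a lipid kinase complex with a Beclin and Atg14 lets it grow, and small proteins of the Atg8 family (LC3 and GABARAP) are joined to its lipid and bind cargo receptors such as p62, the product of Sqstm1. In mitophagy, receptors on mitochondria, the BNIP proteins Bnip3 and Bnip3l among them, bind Atg8 proteins directly.

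The spots differ by clone collection, and this touches many results below. The study's tables list 2658 clones under IDs that open with H, P or N, and the clones that could be matched to a spot placed each letter at fixed positions on the array. A further 480 spots lay at positions outside this layout, to which none of these clones was matched, and such spots are called unlisted here. Their median log2 ratio over all genes was 1.56, against 0.00 for the 15360 H spots and 0.03 for the 960 P spots. Of the unlisted spots, 78.8% rose in S-1 cells at an adjusted p of 0.005 (limma over all tested spots) and 0.833% fell. Of the H spots 6.76% rose and 8.52% fell, and of the P spots 19.3% rose and 12.8% fell. Of the members, 69 spots were H clones, 4 were P clones and 6 were unlisted, and none was an N clone.

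As a whole the members went both ways. Of the 45 gene values, each the mean of all spots of a gene, 10 rose in S-1 cells, 3 fell and 32 did not pass the threshold. Across all genes 12.4% rose and 10.3% fell, and the members' shares were 22.2% and 6.67%. The median log2 ratio of the members was 0.01, as was that of all genes tested. With the unlisted spots left out, 5 of 42 members rose (11.9%) and 4 fell (9.52%), beside 9.26% and 10.6% of all genes, so that the members' shares then lay near the background. On H clones alone, 4 of 40 members rose and 4 fell (8.0% and 10.7% of all genes). At single spots, 10 of the 79 members rose and 10 fell, beside 9.68% and 8.52% of all spots. Clones of the same gene count separately there, and 3 of the 10 that fell were of Bnip3l.

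By role, 10 of the 28 apoptosis members rose and 2 fell (35.7% and 7.14%, median 0.08, limma). Of the 17 autophagy members 0 rose and 1 fell (0% and 5.88%, median −0.04). Across all genes 12.4% rose and 10.3% fell. At an unadjusted p of 0.05, 1 autophagy member was higher and 5 were lower, beside 28.7% and 25.5% of all genes, so that the count of lower members was near the background. At an adjusted p of 0.05, 11 members rose and 9 fell, beside 24.4% and 21.8% of all genes. Whether the split differs between apoptosis and autophagy was not tested, and 5 of the 10 apoptosis genes that rose (Casp1, Casp2, Casp8, Casp9 and Casp14) owed the call to unlisted spots. Without array 1 the counts over all members were 7 that rose and 1 that fell (5.19% and 3.07% of all genes). Without array 2 they were 4 and 1 (3.89% and 2.07%), and without array 3 they were 12 and 5 (21.2% and 19.3%).

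**Figure D1:**
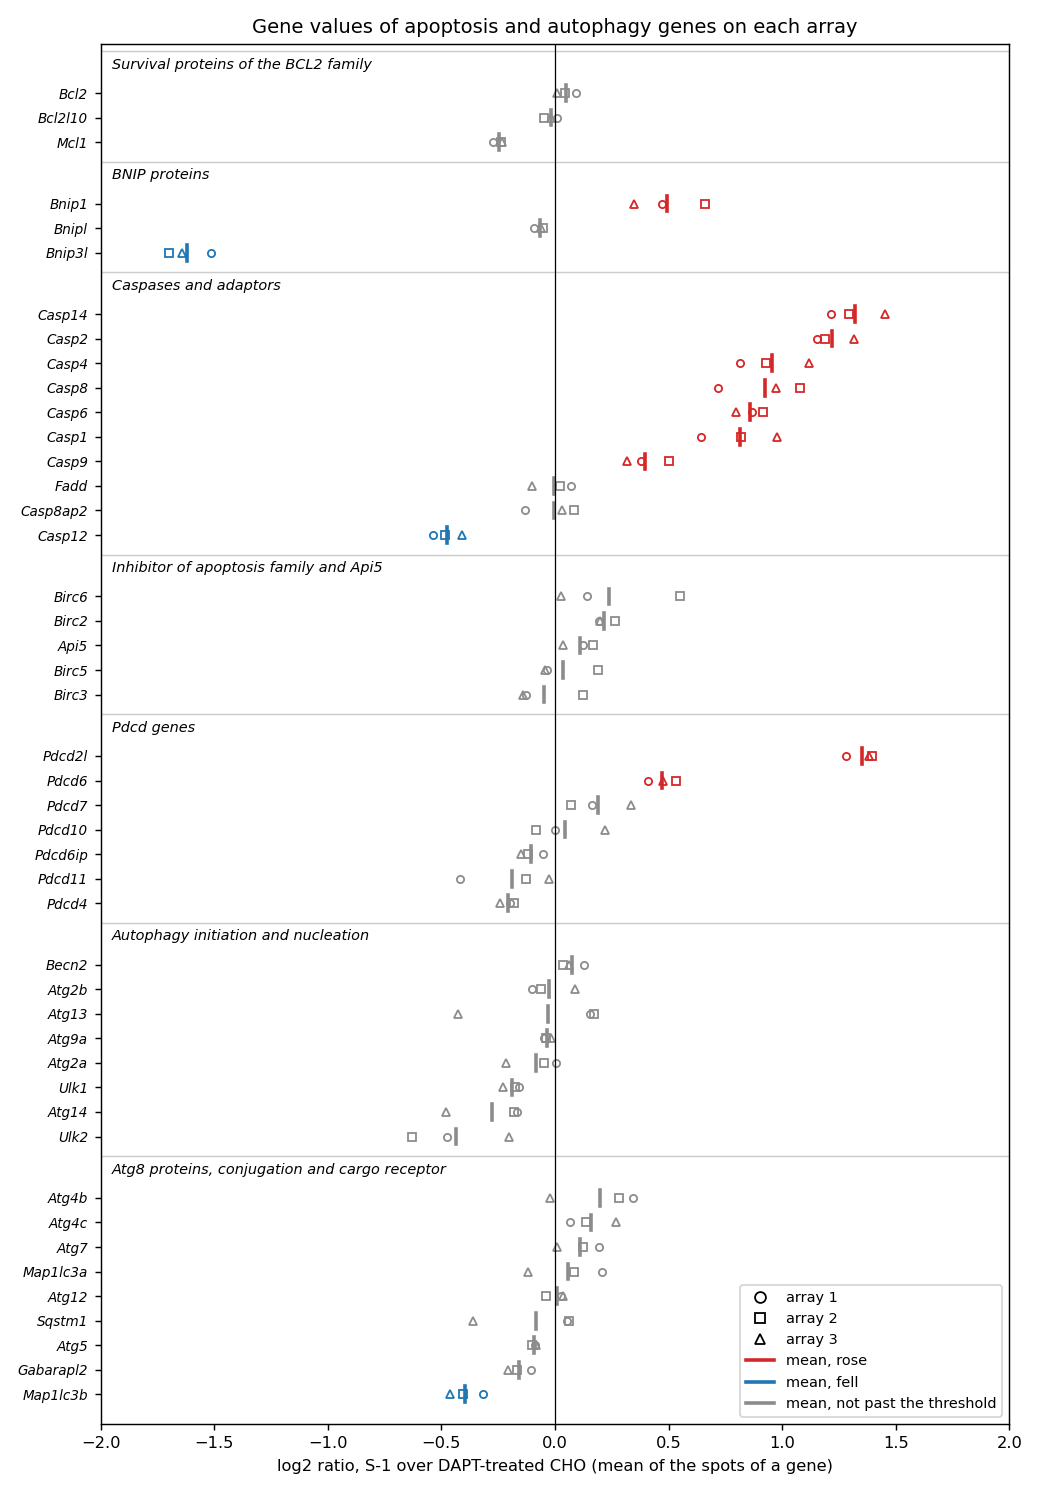
Gene values of the 45 members (horizontal axis, S-1 over DAPT-treated CHO on the log2 scale), grouped by role, with a symbol for each of the 3 arrays and a bar for their mean, coloured by whether the value rose, fell or did not pass an adjusted p of 0.005. Most caspase genes lie right of 0 on every array, and 6 caspase spots that enter their values are unlisted. Bnip3l lies far left with a mean of −1.62, and the means of the autophagy genes lie between −0.44 and 0.20.

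None of the 3 gene values of survival proteins of the BCL2 family passed the threshold (limma), and 1 was lower at an unadjusted p of 0.05 (25.5% of all genes). Bcl2, the founding survival protein, was measured by 2 H clones and a P clone, whose means were 0.14, 0.02 and −0.01, and its gene value was 0.05 ± 0.04 (SD, n = 3, adjusted p = 0.411, limma). Bcl2l10 stood at −0.02 ± 0.03 (adjusted p = 0.746). Mcl1, a short-lived survival protein, was lower on both of its H clones on all 3 arrays. The first clone was at −0.41, −0.39 and −0.36 on arrays 1, 2 and 3 and fell (−0.38 ± 0.02, adjusted p = 0.00247). The second was at −0.14, −0.09 and −0.10 and did not pass (adjusted p = 0.111), and the gene value of −0.25 did not pass either (adjusted p = 0.00755). The call on the first clone ended without array 1 (adjusted p = 0.0225) and without array 2 (adjusted p = 0.0362).

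Bnip3l, a mitophagy receptor of the outer mitochondrial membrane also called NIX, had the largest change among the 45 gene values. Its first H clone was at −1.44, −1.58 and −1.82 on arrays 1, 2 and 3. The second was at −1.53, −1.77 and −1.60 and the third at −1.57, −1.74 and −1.51. The 3 clones thus gave nearly the same ratio, with means of −1.61, −1.63 and −1.61, and on no array did any of them come above −1.44. The gene value was −1.62 ± 0.09 (SD, n = 3, adjusted p = 1.36e-04, limma), a level 3.07-fold lower in S-1 cells. At most 0.352% of all H spots were as low as any of these clones. The call on the gene value stood without each of the 3 arrays (adjusted p between 9.44e-07 and 0.00128), while the first clone alone was at an adjusted p of 0.00624 without array 2.

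Of the other BNIP genes 1 rose. Bnip1, which encodes a SNARE protein of the endoplasmic reticulum that binds BCL2 proteins, was measured by 2 H clones. Its first clone was at 0.26, 0.43 and 0.13 and did not pass (adjusted p = 0.0311), whereas the second was at 0.68, 0.89 and 0.56 and rose (adjusted p = 0.00188). Both clones were above 0 on every array and highest on array 2. The gene value was 0.49 ± 0.16 (SD, n = 3, adjusted p = 0.00454, limma), 1.41-fold higher in S-1 cells. This call ended without array 1 (adjusted p = 0.0238), without array 2 (adjusted p = 0.0228) and with a robust variance prior (adjusted p = 0.00518). The second clone did not pass without array 1 (adjusted p = 0.00907) or array 2 (adjusted p = 0.0165). Bnipl was at −0.07 ± 0.02 (adjusted p = 0.239).

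Caspases were the members with the most calls. Among the 8 caspase genes, 7 gene values rose and 1 fell in S-1 cells, beside 12.4% and 10.3% of all genes (limma). However, 6 of the 12 caspase spots were unlisted, and these were the only unlisted spots among the members. With the unlisted spots left out, 7 genes of caspases and their adaptors had a value. Of these 2 rose and 2 fell, beside 9.26% and 10.6% of all genes. All 6 unlisted caspase spots rose, beside the 78.8% of all unlisted spots that did. Of the other caspase spots, 1 P clone rose, 2 H clones fell and 3 spots did not pass.

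Of the 6 unlisted caspase spots, 5 lay below the median of their own collection. Casp1, the inflammatory caspase that matures interleukin-1β, was at 0.64, 0.82 and 0.98 on arrays 1, 2 and 3 (adjusted p = 0.00127 at the spot, limma), and 31.2% of the unlisted spots were at or below its mean of 0.81. The initiator Casp8, which death receptors recruit, was at 0.72, 1.08 and 0.97 (adjusted p = 0.0011, 35.2% of unlisted spots at or below). Casp2, an initiator linked to DNA damage, was at 1.16, 1.19 and 1.32 (adjusted p = 1.52e-04, 42.7% at or below). These 3 genes were each measured at a single unlisted spot, so their ratios were of the size common at such positions. The exception was Casp14, a caspase of the differentiating epidermis, whose unlisted spot was at 2.57, 2.81 and 3.07 (2.81 ± 0.25, SD, n = 3) with 99.2% of unlisted spots at or below it. Without array 2, the spots of Casp1, Casp2 and Casp8 did not pass (adjusted p = 0.0201, 0.00515 and 0.0143), nor did the gene values of Casp1 (adjusted p = 0.00926) and Casp8 (adjusted p = 0.00613).

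In the 3 caspase genes with an unlisted spot and another clone, the clones did not give the same ratio. Casp9, the initiator activated by cytochrome c through Apaf1, was at 1.08, 1.33 and 1.12 at its unlisted spot, which rose (1.18 ± 0.13, SD, n = 3, adjusted p = 2.85e-04, limma). Its H clone was at −0.33, −0.33 and −0.48 and fell (−0.38 ± 0.09, adjusted p = 0.00462). Casp9 was the only member with spots past the threshold in both directions, which was the case for 48 of the 2877 genes with several spots. Its gene value of 0.40 rose (adjusted p = 0.00359), but on H clones alone it was −0.38 and fell (adjusted p = 0.00393). Without arrays 1 and 2 in turn, neither the gene value (adjusted p = 0.0237 and 0.0301) nor the H clone (adjusted p = 0.0227 and 0.0407) passed.

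Casp14 showed the widest gap between spots. Against the 2.81 of its unlisted spot, its P clone was at −0.14, −0.22 and −0.17 and did not pass (adjusted p = 0.0344, limma). The gene value of 1.32 rose, and without the unlisted spot it was −0.17 (adjusted p = 0.0262). Casp6, an executioner caspase, was higher at both of its spots. The unlisted spot was at 1.35, 1.48 and 1.33 (adjusted p = 1.25e-04) and the H clone at 0.38, 0.35 and 0.27 (0.33 ± 0.06, SD, n = 3, adjusted p = 0.00525). The H clone lay just outside the threshold in the fit of all spots, and as a gene value on H clones alone it passed (adjusted p = 0.00425), which is a linear ratio of 1.26.

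Casp4 and Casp12, both grouped with the inflammatory caspases, had no unlisted spot and went opposite ways. Casp4 was at 0.82, 0.93 and 1.12 on a P clone and rose (0.95 ± 0.15, SD, n = 3, adjusted p = 6.60e-04 at the spot, limma), 1.94-fold higher in S-1 cells. Among P spots, 92.8% were at or below it. Without array 2 the adjusted p was 0.0129 at the spot and 0.00518 for the gene value. Casp12, which resides at the endoplasmic reticulum in mouse cells, was lower on both clones. The H clone was at −0.74, −0.65 and −0.65 and fell (−0.68 ± 0.06, adjusted p = 5.84e-04), and the P clone was at −0.33, −0.33 and −0.17 and did not pass (adjusted p = 0.0135). The gene value of −0.48 fell (adjusted p = 0.00142), but not without array 1 (adjusted p = 0.0131) or array 2 (adjusted p = 0.016). The H clone did not pass without array 2 (adjusted p = 0.0129). Neither Casp12 nor Casp1 was matched by symbol in the hamster annotation, so their spots are named here by the mouse clone alone. Fadd, the adaptor that brings Casp8 to death receptors, was at 0.07, 0.02 and −0.10, and the Casp8-binding protein gene Casp8ap2 at −0.13, 0.08 and 0.03, with values on both sides of 0 (adjusted p = 0.966 and 0.938, limma).

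**Figure D2:**
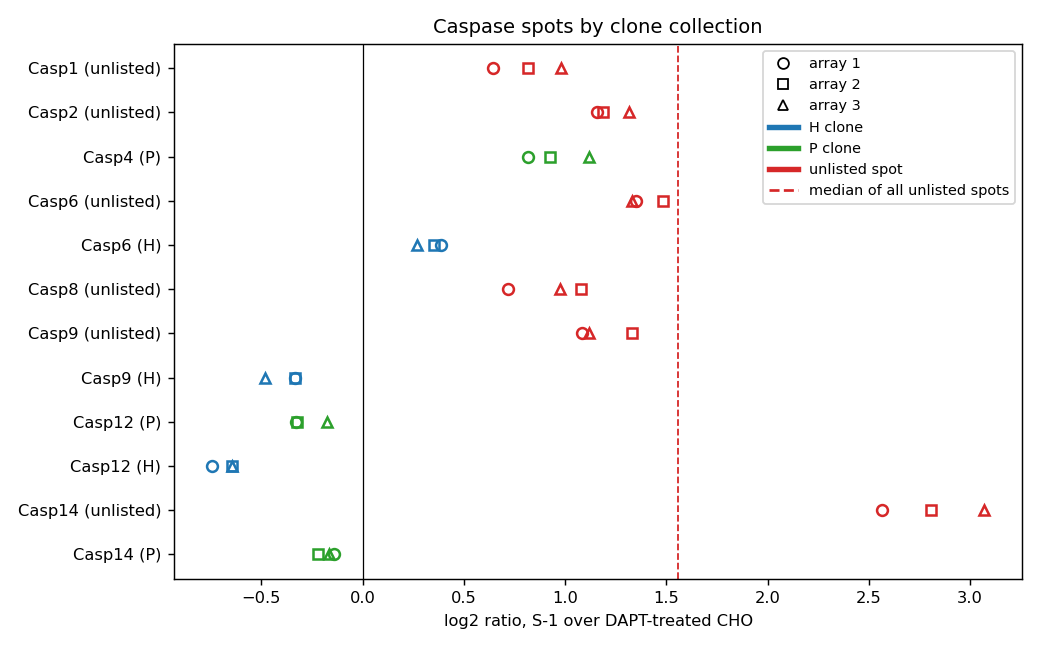
Ratios at the 12 caspase spots on arrays 1, 2 and 3 (horizontal axis, S-1 over DAPT-treated CHO, log2), coloured by clone collection, with the median of all unlisted spots (1.56) as a dashed line. The 6 unlisted spots lie right of 0, 5 of them with means left of the dashed line, while the H clone of Casp9 and the P clone of Casp14 lie left of 0.

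**Figure D3:**
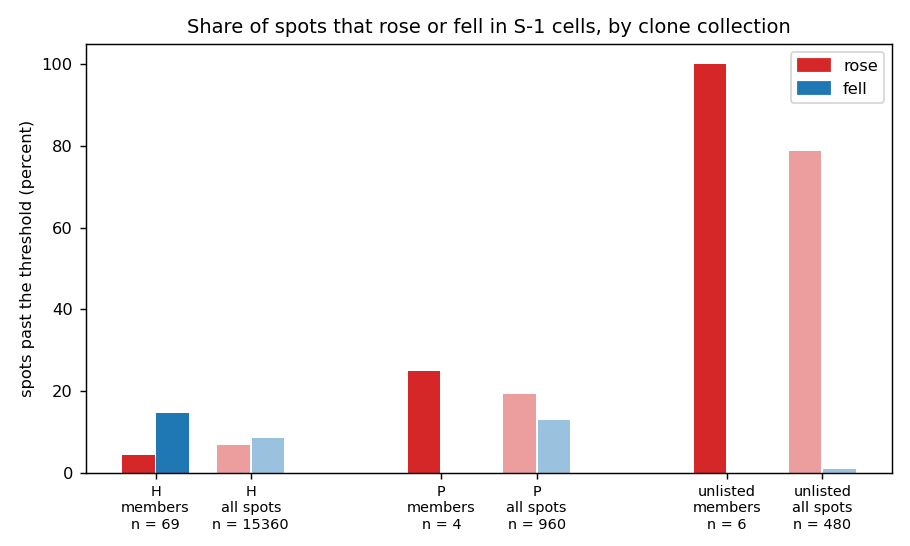
Share of spots (vertical axis, percent) that rose or fell in S-1 cells at an adjusted p of 0.005, for the members and for all tested spots of the H, P and unlisted positions. Of the unlisted spots 100% of the 6 members and 78.8% of all 480 rose, and of the H spots 14.5% of the 69 members and 8.52% of all fell. Clones of the same gene count separately, and 3 of the 10 H spots that fell were of Bnip3l and 2 of Map1lc3b. As gene values on H clones alone, 10% of the 40 members and 10.7% of all genes fell.

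None of the Birc genes and Api5, the inhibitor of apoptosis genes among the members, passed the threshold (limma). Of the 5 genes, 0 rose and 0 fell, beside 12.4% and 10.3% of all genes. At an unadjusted p of 0.05, 1 was higher (28.7% of all genes), and their median was 0.11. Birc2, which encodes the ubiquitin ligase cIAP1, came nearest at 0.19, 0.26 and 0.20 on arrays 1, 2 and 3 (0.22 ± 0.04, SD, n = 3, adjusted p = 0.0128). Its values were above 0 and close together on all 3 arrays. Birc3 was at −0.13, 0.12 and −0.14 and Birc5, the mitotic protein survivin, at −0.04, 0.19 and −0.04, both higher on array 2 than on the other arrays. Birc6 followed the same order in its gene value (0.14, 0.55 and 0.03). Of its 3 clones 1 was at 1.53 on array 2, and at 0.13 on array 1 and 0.03 on array 3, and both others varied less. Api5, an apoptosis inhibitor outside the Birc family, was at 0.11 ± 0.07 (adjusted p = 0.124). Xiap, an inhibitor of this family whose name the membership rule leaves out, was at 0.08 (adjusted p = 0.178).

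The Pdcd genes share a name more than a function, and 2 of 7 rose and 0 fell, beside 12.4% and 10.3% of all genes. Pdcd2l, related to a factor of ribosome assembly, was at 1.28, 1.39 and 1.38 on its H clone (1.35 ± 0.06, SD, n = 3, adjusted p = 1.36e-04, limma), 2.55-fold higher in S-1 cells and the highest gene value among the members. Its values were narrow across arrays, and 99.9% of all H spots were at or below it. Pdcd6, a calcium-binding protein also named ALG-2, was at 0.41, 0.53 and 0.47 and rose (0.47 ± 0.06, adjusted p = 0.00142). This call ended without array 1 (adjusted p = 0.00961) and array 2 (adjusted p = 0.0164), and that of Pdcd2l stood without each array.

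The Pdcd genes that did not pass lay between −0.21 and 0.19. Pdcd4, an inhibitor of translation initiation, was below 0 on all 3 arrays (−0.20, −0.18 and −0.24, adjusted p = 0.0144, limma), and its clone at −0.32 was near the threshold (adjusted p = 0.00605). Pdcd6ip, the ALIX protein that Pdcd6 binds in membrane repair and endosomal sorting, had an H clone at −0.36, −0.55 and −0.23 and another at 0.25, 0.31 and −0.07. The first was the lower of these clones on each array, and neither passed (adjusted p = 0.0134 and 0.2). Pdcd7 was at 0.19, Pdcd10 at 0.04 and Pdcd11 at −0.19.

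The genes that start autophagy had no gene value past the threshold (0 of 8, limma), while 12.4% of all genes rose and 10.3% fell. At an unadjusted p of 0.05, 3 were lower in S-1 cells and 0 higher (25.5% and 28.7% of all genes), and the median was −0.06. Ulk1, the kinase that opens the pathway, had an H clone at −0.47, −0.40 and −0.51 that fell (−0.46 ± 0.05, SD, n = 3, adjusted p = 0.00178). Its other clone was at 0.15, 0.05 and 0.05 and did not pass (adjusted p = 0.246), and the gene value was −0.19 (adjusted p = 0.0196). The fall was thus seen on 1 of 2 clones, and it was not past the threshold without array 1 (adjusted p = 0.0145) or array 2 (adjusted p = 0.0224). Both clones of its relative Ulk2 were lower. They stood at −0.47, −0.55 and −0.12 and at −0.48, −0.71 and −0.28, least negative on array 3 in either clone. The gene value of Ulk2 was −0.44 ± 0.22, the lowest among the autophagy members, and it did not pass (adjusted p = 0.0138).

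Atg14, which directs the lipid kinase complex to the forming membrane, was below 0 on all 4 clones and all 3 arrays. Its gene values were −0.17, −0.18 and −0.48 on arrays 1, 2 and 3 (−0.28 ± 0.18, SD, n = 3, adjusted p = 0.0367, limma). All 4 clones were lowest on array 3. Atg13, a partner of the ULK kinases, was at 0.15 and 0.17 on arrays 1 and 2 but −0.43 on array 3, where 1 of its clones reached −0.81. The lipid transfer genes Atg2a (−0.09) and Atg2b (−0.02), the scramblase gene Atg9a (−0.04) and Becn2 (0.07) were near 0.

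Of the 9 genes of the Atg8 proteins, their conjugation and their receptor, 0 rose and 1 fell (12.4% and 10.3% of all genes, limma). At an unadjusted p of 0.05, 1 was higher and 2 were lower (28.7% and 25.5% of all genes). The gene that fell was Map1lc3b, which encodes LC3B, the common marker of autophagosomes. Its 4 H clones gave means of −0.73, −0.55, −0.26 and −0.03. The first was at −0.66, −0.87 and −0.66 and the second at −0.44, −0.47 and −0.76, and both fell (adjusted p = 0.00105 and 0.00466, limma). The third was at −0.14, −0.21 and −0.44 and did not pass (adjusted p = 0.0384), and the fourth was at −0.04, −0.08 and 0.01 (adjusted p = 0.611). The clones thus ranged from a fall to near 0, and the gene value was −0.40 ± 0.07 (SD, n = 3), 1.31-fold lower in S-1 cells (adjusted p = 0.00282).

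That call ended without array 1 (adjusted p = 0.0137), without array 2 (adjusted p = 0.0274) and with the median of the clones in place of the mean (adjusted p = 0.00693, limma). The first clone passed without array 1 (adjusted p = 0.00481) but not without array 2 (adjusted p = 0.0128), and the second did not pass without array 1 or array 2 (adjusted p = 0.0121 and 0.0348). The paralogue Map1lc3a was at 0.21, 0.09 and −0.12 (adjusted p = 0.558). Gabarapl2, another Atg8 protein, repeated the pattern of unequal clones. A first clone was at −0.41, −0.55 and −0.65 and fell (−0.54 ± 0.12, SD, n = 3, adjusted p = 0.00241), but not without array 1 (adjusted p = 0.00664) or array 2 (adjusted p = 0.032). Both other clones were at 0.01 and 0.05, and the gene value was −0.16 (adjusted p = 0.0382).

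The conjugation machinery did not pass (limma). Atg5, Atg12 and Atg7, which together attach Atg8 proteins to lipid, were at −0.09 ± 0.01, 0.01 ± 0.04 and 0.11 ± 0.09 (SD, n = 3, adjusted p = 0.131, 0.888 and 0.156). The moderated standard errors of these means in limma, which draw each variance towards that of all genes, were 0.04 to 0.05. The Atg8 proteases Atg4b and Atg4c were at 0.20 and 0.16 (adjusted p = 0.109 and 0.0757). Sqstm1, the cargo receptor p62, was at 0.05 and 0.06 on arrays 1 and 2 and at −0.36 on array 3 (adjusted p = 0.525).

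**Figure D4:**
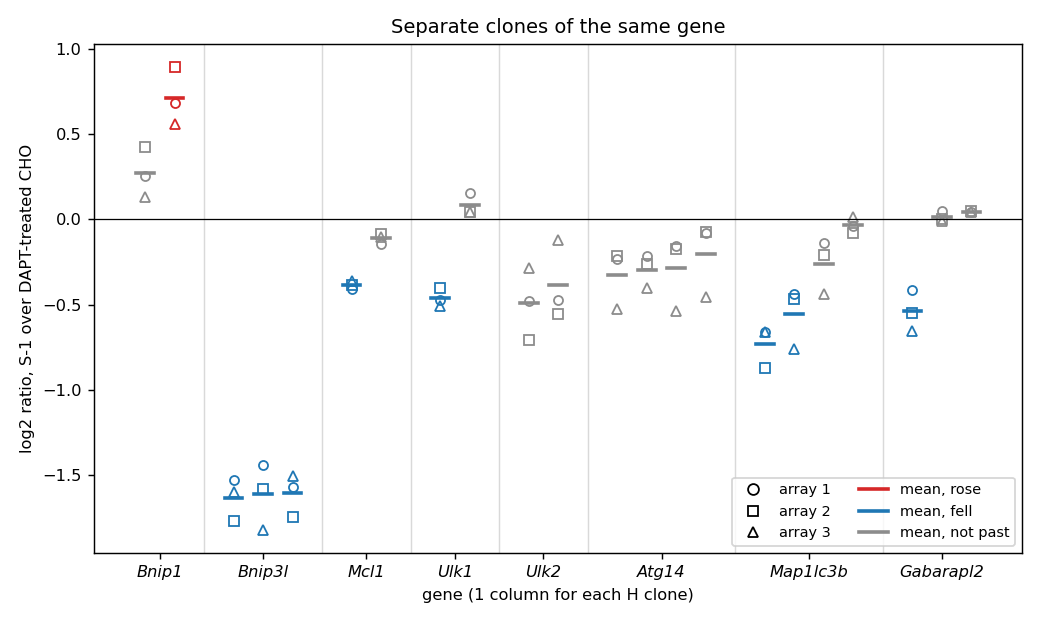
S-1 over DAPT-treated CHO on the log2 scale (vertical axis) for each H clone of 8 member genes, with a symbol for each of the 3 arrays and a bar for the mean, coloured by the call at an adjusted p of 0.005. The 3 Bnip3l clones coincide near −1.6, whereas the 4 Map1lc3b clones spread between −0.73 and −0.03 and 1 of the 3 Gabarapl2 clones lies apart at −0.54.

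Clones of the same gene often differed in their call. Of the 25 members with several spots, 8 had spots both past and not past the threshold, as did 833 of the 2877 genes with several spots on the array. The range of the spot means within a gene had a median of 0.22 in the members and 0.22 in all such genes. All 13 member clones that could be paired with a single clone of the study's tables carried the same name there.

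The dye orientation was turned on array 3, where S-1 RNA was in Cy5. The array 3 ratio differed by over 0.3 from the mean of arrays 1 and 2 at 18 of the 79 member spots (22.8%), and at 16.3% of all tested spots. The sign was the same on all 3 arrays at 51 member spots (64.6%, against 67.6% of all). Atg13, Atg14 and Sqstm1 were lower on array 3, and the Birc6 clone was high on array 2 alone. The dye and the third pair of cultures cannot be told apart in such differences. A fit with the dye as a second coefficient took its spread from arrays 1 and 2 alone, which share a dye orientation. Its p-values therefore do not measure how well both dye orientations match. With the dye as a second coefficient in limma, all 13 members called above passed, and the counts were 12 that rose and 8 that fell, beside 23.2% and 21.8% of all genes.

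**Figure D5:**
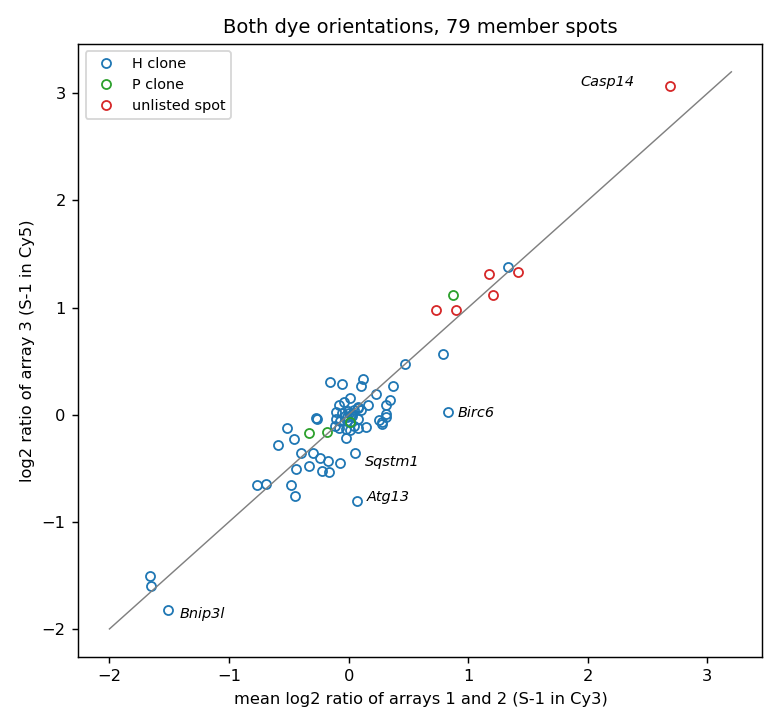
S-1 over DAPT-treated CHO on the log2 scale, on array 3, where S-1 RNA carried Cy5 (vertical axis), against the mean of arrays 1 and 2, where it carried Cy3 (horizontal axis), for the 79 member spots coloured by clone collection, with the line of equality. The unlisted spot of Casp14 lies above the line (0.38) and a Bnip3l clone below it (−0.31), while Atg13 (−0.81 on array 3), Sqstm1 (−0.36) and Birc6 (0.03) also lie below it.

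The pathways hold genes with other names, whose values follow. Of 51 other apoptosis genes listed, 28 had a value, and 9 rose and 1 fell (32.1% and 3.57%, beside 12.4% and 10.3% of all genes, limma). Cycs, the gene of cytochrome c, was at 0.85, 0.89 and 1.04 (0.93 ± 0.10, SD, n = 3, adjusted p = 3.19e-04) and at 0.70 on its H clones alone. Aifm1, a mitochondrial flavoprotein that can move to the nucleus, was at 0.35, 0.44 and 0.55 (adjusted p = 0.00273). Both were above 0 on every array. Further rises on H clones were Dapk1, a death-associated kinase (0.95), Ccar1 (0.94), Bclaf1 (0.79 over 4 clones) and the caspase activation inhibitor gene Aven (0.48).

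No H clone stood behind the rises of the death receptor genes. Tnfrsf1a (1.51) and its adaptor Traf2 (0.81) were measured at a single unlisted spot each, and Fas (0.92) at a P, an N and an unlisted spot. Bag6, a chaperone of tail-anchored proteins, was the gene that fell (−0.29, adjusted p = 0.00497, limma). With the unlisted spots left out, 6 of 26 rose and 0 fell, beside 9.26% and 10.6% of all genes, and 5 were lower at an unadjusted p of 0.05, beside 26.8% of all genes. Neither Fas nor Bag6 passed then.

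Of 46 other autophagy genes listed, 36 had a value, all with H clones, and 1 rose and 6 fell (2.78% and 16.7%, beside 12.4% and 10.3% of all genes, limma). Wipi1, which binds the lipid of forming autophagosomes, was at −0.51, −0.58 and −0.88 and Pink1, the kinase that marks damaged mitochondria, at −0.47, −0.59 and −0.82 (adjusted p = 0.00302 and 0.00279). Both were lowest on array 3. Lamp2, a lysosomal membrane protein, was at −0.42, −0.50 and −0.52 over 3 H clones (adjusted p = 0.00124). Stx17, the SNARE of autophagosome fusion (−0.42), the receptor gene Calcoco1 (−0.42) and the growth kinase gene Mtor (−0.55), which restrains autophagy, also fell. The deacetylase gene Hdac6 rose (0.43, adjusted p = 0.00169). On H clones alone 1 of the 36 rose and 7 fell, beside 8.0% and 10.7% of all genes (limma). The added fall was Tollip, at −0.39 on its H clone (adjusted p = 0.00364). Over its H, P and unlisted spots Tollip was at −0.15 (adjusted p = 0.149). With the unlisted spots left out, 1 rose and 6 fell, beside 9.26% and 10.6% of all genes. Over both lists of other genes (28 and 36 with a value, all spots), 10 rose and 7 fell, beside 12.4% and 10.3% of all genes. Without array 1 these counts were 7 and 0 (5.19% and 3.07% of all genes, limma). Without array 2 they were 4 and 0 (3.89% and 2.07%), and without array 3 they were 16 and 12 (21.2% and 19.3%). The calls of all 6 falls among the autophagy genes thus ended without array 1 and without array 2, where falls were also fewer over all genes.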

How the data were processed

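The authors read the arrays with GenePix Pro, fitted lowess within print-tip groups with the background left in, and deposited log2 ratios, 1 for each spot of an array. Background and signal intensities were not used here, so signal over background is unknown, and the number of arrays limits the precision. The array held mouse clones, while the RNA was hamster. Every column gave S-1 relative to DAPT-treated CHO, as the transfected genes and the signs in the study's clone lists showed, and their medians over the tested spots were 0.02, 0.01 and 0.00. Gene names came from the array's annotation in GEO, in which 12563 tested spots had 1 name, 412 several and 3953 none. Of the 45 member symbols 41 occurred in the RefSeq annotation of the hamster genome (CriGri-PICRH-1.0), and Atg7, Birc3, Casp1 and Casp12 were not matched by symbol. No sequence of a clone was at hand.

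At 23 positions of each of the 32 blocks no spot had a name and the ratios followed the dye (r = −0.96 between arrays 1 and 3). These 736 spots were taken as controls and left out. Positions of the H, P and N collections were found by pairing the study's listed clones with spots by their ratio. The study's fold changes were larger than the deposited ratios by a constant factor, which was divided out before pairing. This paired 2511 of 2658 clones uniquely, of which 2510 fitted the layout. Fold values given here follow the deposited ratios and are not on the scale of the study's lists.

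limma 3.58.1 in R 4.3.3 fitted 1 coefficient against 0 over all 16928 tested spots, and again over 8146 gene values, with Benjamini-Hochberg adjustment and the authors' threshold of 0.005. The script was tested on simulated data. Python 3.11.15, NumPy 2.4.6, pandas 2.3.3 and Matplotlib 3.10.9 served for tables and plots. The p-values rest on the spread between 3 arrays of separate cultures, moderated by limma. Each variance was drawn towards that of all tested spots or genes. Alternatives were a threshold of 0.05, centring, scaling, quantile normalisation, the dye coefficient, array weights, a robust prior, the median of spots, H clones alone, control spots included, each array left out and, added after the values were seen, unlisted spots left out. Named were the members with a call, those at the ends of each group and those of best known role, and the other pathway genes with a call. The members and lists were chosen with earlier results of these data known.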

Additional observations from a re-analysis of the deposited data

Results flagged for a closer look

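Of 4 spots whose annotation joins a member's name with another gene and which therefore entered no comparison, 1 passed the threshold. This H clone lay between −1.24 and −0.96 on the 3 arrays (mean −1.07 ± 0.15, SD, n = 3, adjusted p = 4.66e-04, limma), and drew attention as a signal outside the genes reported. The other 3 lay between −0.35 and 0.09 and did not pass.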

How the results depend on the processing

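With the control spots included, 6 member spots rose and 4 fell. With H clones alone 4 gene values (beside 8.0% of all genes) and 3 spots rose. With the unlisted spots left out, 5 gene values (beside 9.26% of all genes) and 4 spots rose. At a threshold of 0.05, 9 gene values and 19 spots fell. Among the other pathway genes (28 and 36 with a value) 16 rose and 14 fell at that threshold, beside 24.4% and 21.8% of all genes. With the dye as a coefficient, 8 gene values and 21 spots fell. Of the other genes 16 rose and 15 fell with this coefficient, beside 23.2% and 21.8% of all genes. With array weights, 5 gene values, 16 spots and 13 of the other genes fell. Shares over all features were not computed with array weights or control spots, nor for the spot counts in this paragraph. Those counts therefore cannot be set against a background. Of the 7 roles, 1 held more genes that fell than rose. This was 3 at the threshold of 0.05, with the dye coefficient and with array weights, 2 with a robust prior and with H clones alone, and 0 with the median of spots. Leaving out each array in turn gave 4 to 12 gene values that rose and 1 to 5 that fell, 4 to 18 spots that rose and 2 to 17 that fell, 4 to 16 of the other genes that rose and 0 to 12 that fell, and 1 to 2 roles with more falls. Centring, scaling and quantile normalisation kept all 13 gene value calls. Casp9 turned to −0.38 with H clones alone or without the unlisted spots, and Casp14 to −0.17 without them. Each ratio already pairs the cultures of 1 experiment, so the fit of the ratios against 0 was itself a paired analysis. Without array 3 the dye and the S-1 difference cannot be told apart.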
